A study of Caenorhabditis elegans with 6 samples.

Results

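The microRNA (miRNA) gene mir-235 was described in gonads dissected from adult Caenorhabditis elegans of the wild-type strain N2. It is 1 of 253 miRNA genes counted in each of 6 small RNA libraries, 3 from hermaphrodite gonads and 3 from male gonads, and it was taken as the entry named cel-mir-235. It was chosen because its share, rank and fold change between the sexes, and the part of male replicate 3 in them, were already known. All values that set male against hermaphrodite libraries for mir-235 are therefore a description, and no test is given for them. No treatment, mutation or age beyond adult is named in the labels, the 2 groups differ in sex, and the labels give germline as the cell type. The series' design asked what miRNAs gonads contain and what miRNAs are enriched in male gonads.

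MiRNAs are short RNAs cut from hairpin precursors that guide Argonaute proteins to messenger RNAs, mostly by pairing through the seed near their 5′ end, and so lower the output of those messenger RNAs. Known as the worm homolog of the vertebrate miR-92 family, mir-235 is best known from starved first-stage larvae, where it acts in the hypodermis to hold blast cells in quiescence and falls when feeding restores insulin signalling. The hermaphrodite gonad of an adult makes oocytes, having made sperm before adulthood, whereas the gonad of the male makes sperm throughout. In the annotation of the WBcel235 assembly, mir-235 lies on the minus strand of chromosome I and overlaps no other annotated gene. It stands between the protein-coding genes T09B4.6 and T09B4.8, and its nearest annotated miRNA gene is mir-1, the muscle miRNA. Its hairpin is annotated with 2 mature products, but the counts are per gene and do not separate the arms.

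Library totals were 2268159 to 2621478 miRNA counts in hermaphrodite and 245399 to 597166 in male libraries, so depth and sex cannot be told apart. No library looked like a repeat deposit of another, since replicates of the same sex all differed beyond the sampling noise of independent reads. The lowest chi-square was 2683 (122 degrees of freedom), between male replicates 1 and 2. As a check of the labels, the mir-35 family (mir-35 to mir-42), the known oocyte and embryo miRNAs of this species, took 18.1% to 19.2% of hermaphrodite counts and 0.0550% to 0.0638% of male counts. The labels do not say whether replicates came from separate cultures, so the spread between them may be technical. Male replicate 3 had the lowest total and stood apart from the other male libraries, with chi-square values of 91064 and 79989 on 117 degrees of freedom against replicates 1 and 2. Values that include it are given with and without it.

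In hermaphrodite gonads mir-235 was a moderately abundant miRNA. It had 28359, 30185 and 27280 counts in replicates 1 to 3, which are 1.08%, 1.29% and 1.20% of all miRNA counts. The 95% Wilson intervals of these shares were 1.07% to 1.09%, 1.27% to 1.30% and 1.19% to 1.22%. The intervals did not overlap, so the libraries differed by more than the counting error of independent reads. The highest share was 1.19-fold the lowest. Intervals of this kind cover the counting error of reads only and can be too narrow, since reads copied by PCR are not independent molecules. The mean share was 1.19% ± 0.104 (SD, n = 3), and mir-235 ranked 15 of 253 in each hermaphrodite library.

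In male gonads mir-235 was among the most abundant miRNAs, and its level was split between male replicate 3 and the other male libraries. It had 43838 counts in male replicate 1, 30138 in replicate 2 and 67242 in replicate 3. The shares were 7.34% (95% Wilson interval 7.28% to 7.41%), 6.84% (6.77% to 6.92%) and 27.4% (27.2% to 27.6%). Male replicate 3 thus held the highest raw count of mir-235 of all 6 libraries at the lowest total, and the other male libraries lay close together, though their intervals did not overlap. Its rank was 5 in male replicate 1, 6 in replicate 2 and 1 in replicate 3, where mir-82 followed with 11.2%. The male mean was 13.9% ± 11.7 (SD, n = 3), or 7.09% ± 0.351 (SD, n = 2) without male replicate 3. Every male share lay above every hermaphrodite share, and the lowest male share was 5.31-fold the highest hermaphrodite share. In bulk RNA from whole gonads, more cells that carry mir-235 and more mir-235 per cell cannot be told apart.

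**Figure D1:**
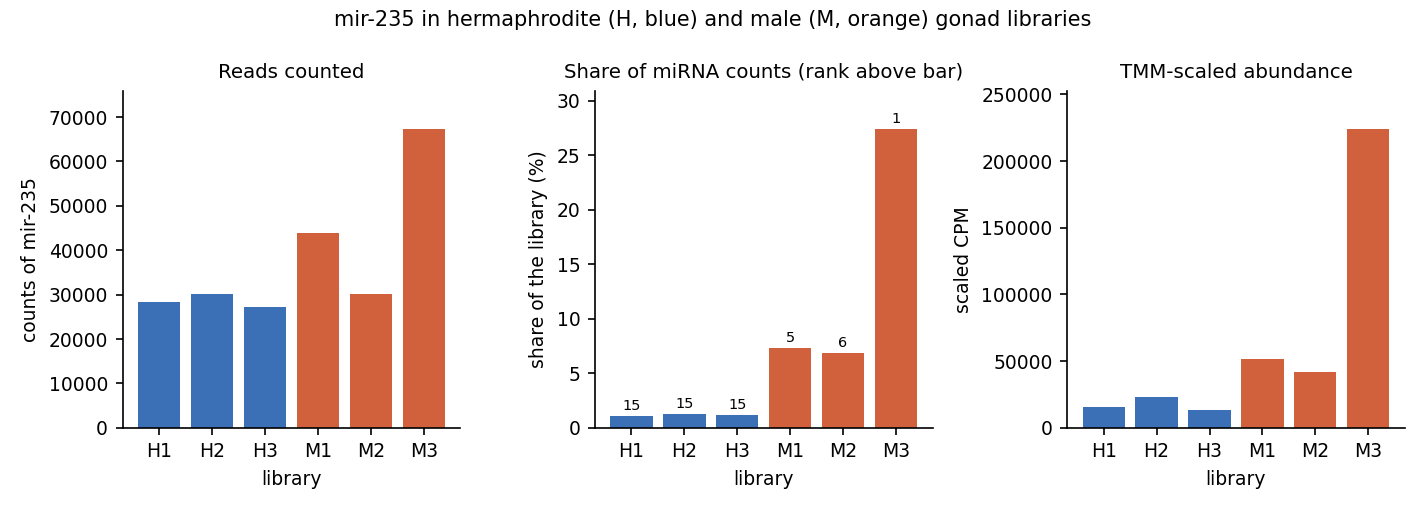
Bars give mir-235 in each of the 3 hermaphrodite (H, blue) and 3 male (M, orange) libraries as read counts, as percent of the library's miRNA counts with its rank among 253 miRNAs, and as scaled CPM. Male replicate 3 is the tallest bar in each panel, at 67242 counts, 27.4% and 223813 scaled CPM, and each bar is a single library with no error bar.

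The size of the male excess depended on how the libraries were scaled to each other. CPM are counts scaled to equal library totals, whereas scaled CPM here use trimmed mean of M values (TMM) factors, which assume that most miRNAs do not differ. That assumption may not hold here, since 30.6% of tested miRNAs were called higher and 25.0% lower in male gonads (edgeR adjusted p under 0.05). In scaled CPM mir-235 stood at 15355, 23005 and 13462 in hermaphrodite replicates 1 to 3. The highest of these was 1.71-fold the lowest, a wider range than that of the shares. The male values were 51452, 42157 and 223813 scaled CPM. The sexes did not overlap on this scale either, as was also true, with males higher, of 38.7% of all tested miRNAs, and the lowest male library was 1.83-fold the highest hermaphrodite library. Set against the hermaphrodite mean of 17274 scaled CPM ± 5053 (SD, n = 3), male replicates 1, 2 and 3 were 2.98-fold, 2.44-fold and 13.0-fold higher. By shares of library totals the same folds were 6.16, 5.75 and 23.0. In the authors' normalized values, which use median-of-ratios factors, they were 2.09, 2.01 and 11.4. The order of the male libraries was the same on all 3 scales, and male replicates 1 and 2 differed from each other by 1.04-fold to 1.22-fold.

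The quasi-likelihood fit of edgeR covered all 124 miRNAs that passed the filter on low counts. In it the log2 fold change of mir-235 was 2.61 in male over hermaphrodite gonads (SE 0.60, derived from the F statistic). The median over the 124 miRNAs was 0.15, and mir-235 had rank 24 from the highest log2 fold change. Without male replicate 3 the log2 fold change was 1.16 (SE 0.13), with rank 33 of 132 miRNAs that then passed the filter. Leaving out either other male library gave 2.91 or 2.90. With all 6 libraries the log2 fold change was 2.40 with relative log expression (RLE) factors, 2.85 with upper-quartile factors and 3.54 with library totals. These scalings also moved the median of all tested miRNAs, to -0.20, 0.37 and 1.18. Relative to the median, mir-235 was therefore 2.36 to 2.65 higher on the log2 scale over the main and the 5 other scalings tried. Without male replicate 3 the same distance from the median was 1.16 to 1.17 over the same 6 scalings.

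**Figure D2:**
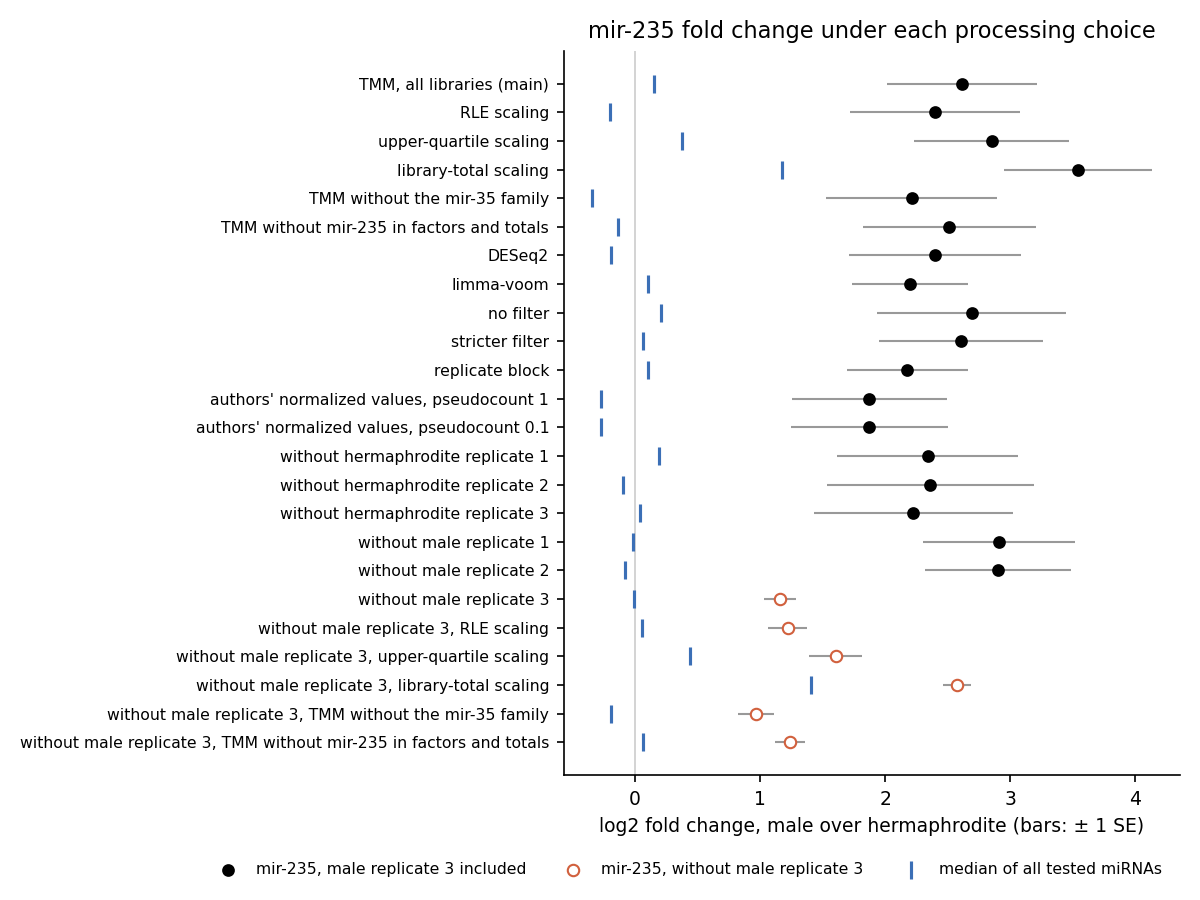
Points give the log2 fold change of mir-235 (male over hermaphrodite, horizontal axis) with bars of 1 SE under each processing choice named on the left, and blue ticks give the median of all tested miRNAs. Filled points, which include male replicate 3, lie between 1.87 and 3.54, and open points, which leave it out, lie between 0.97 and 2.57, with the highest of each under library totals.

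Within a library the ratio of one miRNA to another does not depend on scaling. Against mir-82, the most abundant miRNA in hermaphrodite gonads and a relative of the fly miRNA bantam, mir-235 had 4.30, 5.06 and 4.94 counts per 100 counts of mir-82 in hermaphrodite replicates 1 to 3. In the male libraries it had 62.6, 55.8 and 245. Male replicates 1 and 2 were thus close to each other and far above all hermaphrodite libraries, and only in male replicate 3 did mir-235 exceed mir-82. Against mir-58a, another member of that family, the ratios were 61.4, 59.6 and 46.1 per 100 counts in hermaphrodite and 123, 122 and 1046 in male libraries. Over the 71 other miRNAs with at least 10 counts in every library, the ratio of mir-235 to the other miRNA was higher in every male than in every hermaphrodite library for 61. Over all ordered pairs of these miRNAs the same was true of 35.4%. The ratio was lower in every male library for 4 miRNAs, which were mir-1018, mir-2209a, mir-4807 and mir-49. For the other 6 the sexes overlapped. Without male replicate 3 the ratio was higher for 61 and lower for 7. With fewer male libraries such separation is easier to reach, and the share over all ordered pairs was not computed for that setting.

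The neighbours of mir-235 in the order of abundance differed between the sexes. In hermaphrodite gonads mir-51, a member of the family related to vertebrate miR-100, ranked just above it at 1.31% ± 0.0247 (SD, n = 3). The ranges of mir-51 and mir-235 overlapped, although mir-51 was the higher in each library. Just below stood let-7, the miRNA of the larval-to-adult switch, at 0.984% ± 0.118 (SD, n = 3), and mir-235 lay above its whole range. In male gonads mir-2209a ranked just above mir-235 at 15.4% ± 4.26 (SD, n = 3) and mir-82 just below at 11.7% ± 0.535 (SD, n = 3). Both overlapped the range of mir-235, and mir-235 was the higher only in male replicate 3. Without that library mir-235 had rank 5 by mean share, between mir-81 at 8.47% and mir-72 at 6.86%, and its range overlapped that of mir-72 but not that of mir-81.

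Counted in percentage points of the library, mir-235 rose by 12.7 from the hermaphrodite to the male mean. Of the 253 miRNAs, mir-2209a gained more, at 15.4 points, and mir-57 came next after mir-235 at 4.75 points. Without male replicate 3 the gain of mir-235 was 5.90 points, still the second after mir-2209a at 17.8 points, with mir-61 following at 4.03 points. Shares in a library sum to a fixed total, so a gain in share need not be a gain in amount.

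Male replicate 3 was compared with the other male libraries over the 86 miRNAs with at least 10 counts in each male library. For mir-235 its scaled CPM was 4.78-fold the mean of replicates 1 and 2, and 4.35-fold the higher of them. The median ratio to that mean over the 86 miRNAs was 1.07. Of the 86, 11 were at least 2-fold above both other male libraries and 12 were at least 2-fold below both. By the ratio to the higher of the other male libraries mir-235 was the second of the 86, after mir-252 at 6.55-fold. The spread of mir-235 over the male libraries was an SD of 1.32 on the log2 scale, the fourth highest of 72 miRNAs with at least 10 counts in every library, whose median was 0.45. In hermaphrodite libraries its SD was 0.40, rank 24 of the 72, with a median of 0.36.

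The miRNAs most raised with mir-235 in male replicate 3 were far less abundant than it, and the first of them differed from it between the sexes. Some abundant miRNAs rose too, but by less. From the mean of male replicates 1 and 2 to replicate 3, mir-57 went from 31253 to 62519 scaled CPM and mir-48 from 34691 to 55233. Others fell, such as mir-61, from 74909 to 26122 scaled CPM. After mir-252 and mir-235, the highest ratios to the other male libraries were 3.45-fold for mir-240, 3.13-fold for mir-49, 2.79-fold for mir-357 and 2.46-fold for mir-243. For mir-252 the male libraries held 58, 35 and 134 counts. In scaled CPM this was 68.1, 49.0 and 446 against 174, 192 and 116 in hermaphrodite libraries, so only male replicate 3 lay above the hermaphrodite range. For mir-240 the male values were 38.7, 43.4 and 150 scaled CPM against 275, 354 and 222 in hermaphrodite libraries. All male libraries were thus below all hermaphrodite libraries for mir-240, the reverse of mir-235. The male values of mir-240 rest on only 33, 31 and 45 counts, and those of mir-357 on 62, 34 and 61.

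**Figure D3:**
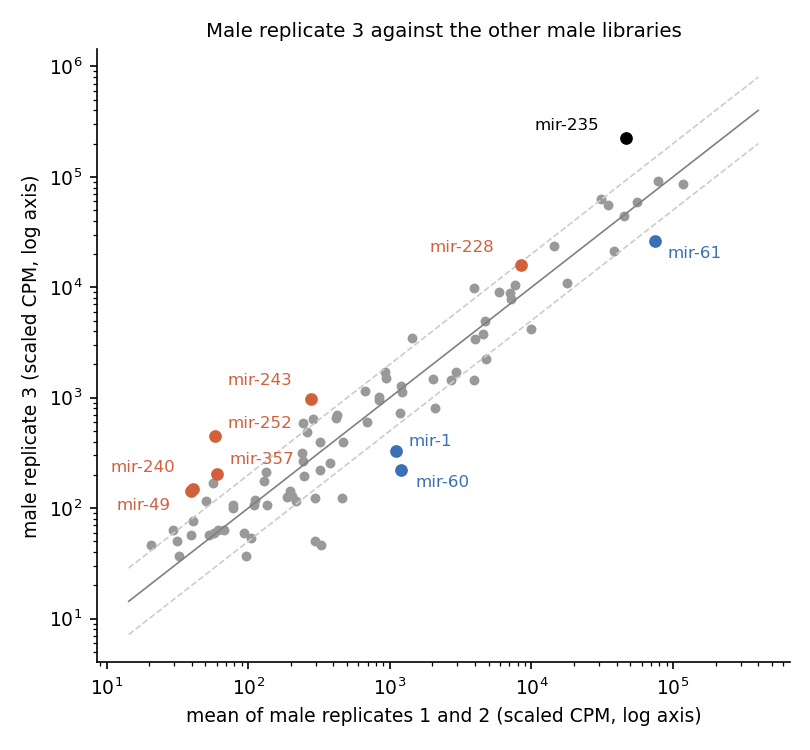
Each point is 1 of 86 miRNAs, with its scaled CPM in male replicate 3 (vertical log axis) against the mean of male replicates 1 and 2 (horizontal log axis), where the solid line marks equal values and the dashed lines a 2-fold difference. The black point is mir-235, at 223813 scaled CPM against 46804, and it lies above the upper dashed line with mir-252 and other less abundant miRNAs, while mir-1, mir-60 and mir-61 lie below the lower one.

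Markers of somatic tissue did not move together in male replicate 3. The 6 markers summed to 0.463% to 0.541% of counts in hermaphrodite libraries and 1.56%, 1.72% and 2.03% in male replicates 1 to 3. Under library totals the median of all tested miRNAs was also higher in males, by 1.18 on the log2 scale. In scaled CPM the sum was 6920, 8272 and 6060 in hermaphrodite and 10956, 10614 and 16619 in male replicates 1 to 3. The glial and hypodermal mir-228 made up most of it and stood at 8245, 8674 and 16047 scaled CPM in male replicates 1 to 3, where replicate 3 was the highest. The muscle miRNA mir-1 stood at 1242, 965 and 333 scaled CPM, and the intestinal mir-60 at 1452, 943 and 220. Both were thus lowest in the library in which mir-235 was highest. The neuronal lsy-6 had 8, 20 and 2 counts there and mir-124, also neuronal, had 1, 2 and 0 counts, while the neuronal mir-791 had 6, 1 and 4 counts. The part of somatic tissue in the level of mir-235 was not tested. In hermaphrodite libraries mir-228 stood at 5196, 5201 and 3761 scaled CPM, below all male libraries, as mir-235 did. The same was true of 38.7% of all tested miRNAs. The hermaphrodite values of mir-1 were 1359, 2520 and 1804 scaled CPM, above all male libraries. Those of mir-60 were 351, 540 and 485, between male replicate 3 and the other male libraries. In scaled CPM lsy-6 was higher in every male library, on 2 to 20 counts, while for mir-124 and mir-791 the sexes overlapped.

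The profile of mir-235 over the 6 libraries was compared with that of each of the 71 other miRNAs with at least 10 counts in every library. Likeness was the root mean square difference of log2 profiles, each centred on its own mean, and the scaling of libraries cancels in it. The median difference over the 71 miRNAs was 1.50 on the log2 scale. The 5 most similar were mir-49 at 0.26, mir-357 at 0.41, mir-243 at 0.54, mir-57 at 0.55 and mir-354 at 0.65. They are annotated on chromosomes X, V, IV, II and I, so only mir-354 is on the chromosome of mir-235.

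Closest in profile was mir-49, at 8.12, 13.7 and 7.90 scaled CPM in hermaphrodite and 45.8, 33.6 and 143 in male libraries. These values rest on 15 to 43 counts per library, against at least 27280 for mir-235, so they carry a far larger counting error. For mir-357 the values were 15.2, 13.0 and 14.8 in hermaphrodite and 72.8, 47.6 and 203 in male libraries, on 17 to 62 counts per library. Male replicate 3 was the highest library for both, as for mir-235, and no male library overlapped the hermaphrodite range. Both were picked for a profile like that of mir-235, so these shared traits largely follow from the choice. In worms mir-243 is known for loading into the Argonaute RDE-1, and it stood at 130, 216 and 131 scaled CPM in hermaphrodite and 392, 161 and 965 in male libraries. Male replicate 2 lay within the hermaphrodite range for mir-243, unlike mir-235.

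Of the 5, only mir-57 was of like abundance to mir-235. Related to the vertebrate miR-10 family and known for a role in posterior cell fate, mir-57 stood at 12901, 18358 and 10668 scaled CPM in hermaphrodite and 33828, 28678 and 62519 in male libraries. Male replicate 3 was 2.00-fold the mean of the other male libraries for mir-57 and 4.78-fold for mir-235. Male replicates 1 and 2 were 2.24-fold the hermaphrodite mean for mir-57 and 2.71-fold for mir-235. The gap between their centred log2 profiles was thus widest in male replicate 3. The folds above use TMM factors computed from all 6 libraries. In the fit without male replicate 3, with factors computed anew, the log2 fold change was 0.88 for mir-57 and 1.16 for mir-235.

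**Figure D4:**
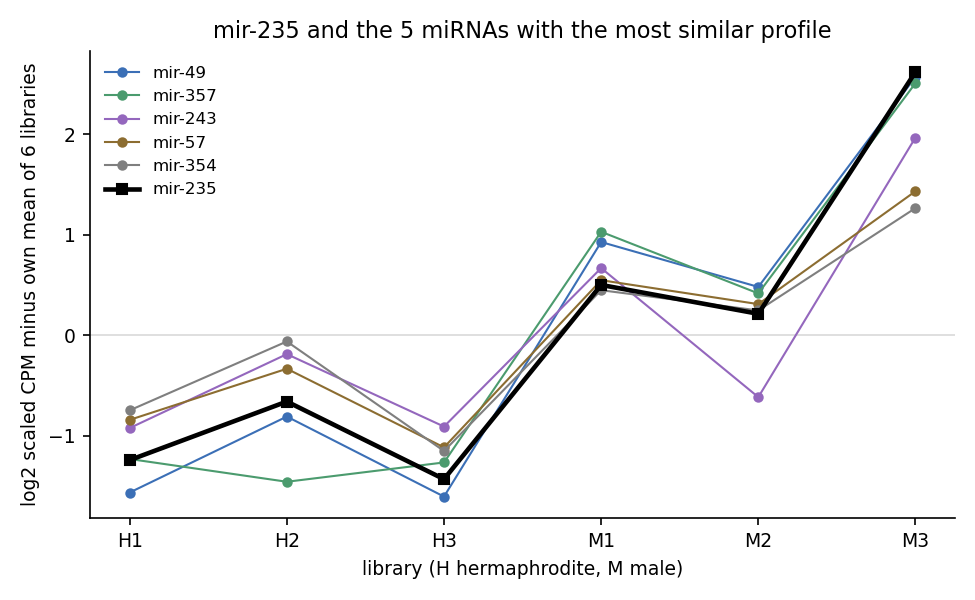
Lines join the values of one miRNA over the 3 hermaphrodite (H) and 3 male (M) libraries, as log2 scaled CPM minus its own mean over the 6 libraries, for mir-235 (black squares) and the 5 miRNAs with the lowest root mean square difference from it (0.26 to 0.65). All 6 are highest in male replicate 3, which largely follows from picking the 5 by profile, and the lines mark no order among replicates.

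The other miRNAs with which mir-235 can be grouped by role showed mixed differences between the sexes. Over all 124 tested miRNAs, 38 (30.6%) were higher and 31 (25.0%) lower in male gonads at an adjusted p under 0.05 in the quasi-likelihood test of edgeR, adjusted by Benjamini-Hochberg. That split depended on scaling, with 69 and 20 under library totals and 28 and 36 with TMM factors computed without the mir-35 family. Among 6 heterochronic miRNAs, which time larval development and act in the hypodermis as mir-235 does, 5 were tested, 1 was higher in male gonads and none was lower. Their median log2 fold change was 0.65, against 0.15 for all tested miRNAs. The miRNA called was lin-4, the regulator of lin-14, at 320.5, 387 and 302 scaled CPM in hermaphrodite and 696, 652 and 1142 in male libraries. It differed by 1.30 on the log2 scale (SE 0.42, edgeR adjusted p 0.00465), and male replicate 3 was its highest library too. No member was called when any 1 of the 3 hermaphrodite libraries was left out or with TMM factors computed without the mir-35 family, and 4 were called as higher under library totals. The let-7 family member mir-48 differed by 0.78 on the log2 scale (SE 0.36, edgeR adjusted p 0.0518), which missed the threshold.

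A list was taken of 17 worm miRNAs whose seed families are also found in flies or vertebrates, like that of mir-235. It is not complete, since it leaves out the bantam relatives mir-82 and mir-58a and the let-7 family member mir-48. These differed by -2.12, 0.07 and 0.78 on the log2 scale in male over hermaphrodite gonads. The counts below therefore do not stand for all conserved worm miRNAs. Of the 17, 15 were tested, of which 7 were higher and 2 lower in male gonads. Those higher were lin-4, mir-34, mir-57, mir-228, mir-49, mir-83 and mir-52, and those lower were mir-1 and mir-54. The median log2 fold change of the 15 was 0.72. These counts varied with scaling and libraries, with 10 higher and 0 lower under library totals and 3 and 2 with TMM factors computed without the mir-35 family. Over all tested miRNAs the number higher moved as well, as given above for these scalings. Without male replicate 3 the list had 6 higher and 5 lower, where 43 and 44 of 132 miRNAs were called overall. Without hermaphrodite replicates 1, 2 and 3, when 14 members passed the filter, the number higher was 4, 3 and 2, and over all miRNAs it was 27 of 114, 24 of 115 and 23 of 114. Only mir-49 and mir-83 were called under all 5 other scalings and with each library left out. For mir-57 the log2 fold change was 1.58 (SE 0.37, edgeR adjusted p 7.51e-05), for mir-83 1.86 (SE 0.52, adjusted p 0.00111) and for mir-34, known for stress responses, 1.02 (SE 0.40, adjusted p 0.0227). As for mir-235, male replicate 3 was the highest male library for 9 of the 15 tested members in scaled CPM, and for 53 of all 124 tested miRNAs. The 9 include mir-51, mir-53, mir-54 and mir-56, none of which was called higher in male gonads with TMM factors. Under library totals mir-51 and mir-56 were called higher. Male replicate 3 was not the highest for mir-83, at 248, 158 and 130 scaled CPM in male replicates 1 to 3, or for mir-34, at 4694, 3254 and 3398.

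Of the 6 somatic markers 4 were tested, and 2 were higher (mir-228 and lsy-6) and 1 lower (mir-1) in male gonads. Over all 124 tested miRNAs 30.6% were higher and 25.0% lower. By the edgeR test mir-228 differed by 1.22 on the log2 scale (SE 0.39, adjusted p 0.00458), lsy-6 by 1.50 (SE 0.60, adjusted p 0.0262) and mir-1 by -1.16 (SE 0.41, adjusted p 0.0121). The call of mir-228 was lost without hermaphrodite replicate 2 or 3 and with TMM factors computed without the mir-35 family. That of mir-1 was lost without hermaphrodite replicate 3 and under upper-quartile and library-total scaling. Among these alternatives lsy-6 was called only without male replicate 3 and under upper-quartile and library-total scaling. The intestinal mir-60 was not called with all libraries, at 0.93 on the log2 scale (SE 0.43, edgeR adjusted p 0.0582). It passed, higher in males, without male replicate 3, at 1.04 with an edgeR adjusted p of 0.00210, and under library totals. The list thus had 3 higher and 1 lower without male replicate 3, 3 higher and 0 lower under library totals, and 0 higher and 1 lower with TMM factors computed without the mir-35 family. Over all tested miRNAs the same settings gave 43 and 44 of 132, 69 and 20 of 124, and 28 and 36 of 124. All 7 tested members of the mir-35 family were lower in male gonads, against 25.0% of all tested miRNAs. Their median log2 fold change was -8.73, which includes members with 3 counts or fewer in each male library. Their summed level of 390 to 449 scaled CPM in male libraries did not set male replicate 3 apart as mir-235 did.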

How the data were processed

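Per the labels' protocols, total RNA from dissected gonads was made into libraries with the TruSeq Small RNA kit. The authors deposited whole-number read counts per miRNA gene for each library. Bowtie2, HTSeq and DESeq2 are named in the submitters' processing notes without roles. The column names carry the labels ce10 and miRase, while trimming and the handling of reads matching several miRNAs are not given in the sources used here. The authors also deposited normalized values, used here as a signal. Counts divided by them gave 1 factor per library, equal to median-of-ratios size factors, so the table was used only as another scaling.

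Groups and replicate numbers came from the sample titles. The deposited counts were fitted with edgeR 4.0.16 (R 4.3.3), using filterByExpr (minimum count 10, keeping 124 of 253 miRNAs), TMM factors of 0.5602 to 1.623, robust dispersions and glmQLFit, with sex as the sole term. Two-sided tests had Benjamini-Hochberg adjustment at 0.05. Library totals were 245399 to 2621478 counts. Alternatives used limma 3.58.1, DESeq2 1.42.0, other scalings and filters, a replicate block, and each library left out. Annotation came from WBcel235 by name for 250 of 253 miRNAs, and no coordinate is given because its build differs from ce10. Sequences were not used here.

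Members and lists were chosen with earlier results of these data known. Named miRNAs were, by rule, the 5 most like mir-235 in profile, its neighbours in rank, the 5 others most raised in male replicate 3, and 4 lists. Others, such as mir-58a, mir-61 and mir-82, were named after their values were seen.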

Additional observations from a re-analysis of the deposited data

How the results depend on the processing

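The log2 fold change of mir-235 stayed positive in all 23 alternatives, from 0.97 to 3.54. Over the 6 fits that left out 1 library it ranged from 1.16 (without male replicate 3) to 2.91 (without male replicate 1). Fits without male replicate 3 under another scaling were added after seeing the data, and gave 1.22 with RLE, 1.60 with upper-quartile, 2.57 with library totals, 0.97 with TMM without the mir-35 family and 1.24 with TMM without mir-235. The mean share ranged from 7.09% (without male replicate 3) to 17.4% in male and from 1.14% to 1.25% in hermaphrodite gonads when 1 library was left out. The hermaphrodite share was 1.46% without the mir-35 family and 1.59% without mir-82 in the total. Male replicate 3 over the mean of male replicates 1 and 2 was 4.78 in scaled CPM, 3.86 by library totals, 5.58 with RLE and 6.01 with TMM without mir-235.

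The number of miRNAs called higher and lower in male gonads was 38 and 31, and 69 and 20 under library totals. With 1 library left out it ranged from 23 to 43 higher and from 26 to 44 lower, with 24 higher without hermaphrodite replicate 2 and 23 without hermaphrodite replicate 3. The cause was not tested. Same-numbered libraries of the 2 sexes did not deviate together (correlations -0.13, -0.02 and -0.26), and no library correlated best with its own number. With the replicate block the log2 fold change of mir-235 was 2.18, and 31 and 27 miRNAs were called. For mir-235 counting error was small at this depth and the spread among 3 male libraries sets the precision.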

Other observations

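Leaving mir-235 out of the total moved the shares of abundant miRNAs in male replicate 3 toward or away from those in the other male libraries, depending on the miRNA. For mir-82 the shares in male replicates 1 to 3 were 11.7%, 12.3% and 11.2% of all counts and 12.7%, 13.2% and 15.4% of the counts other than mir-235, so male replicate 3 moved from the lowest to the highest. For mir-72 the shares in male replicates 1 to 3 were 6.57%, 7.14% and 5.39% of all counts, and 7.09%, 7.67% and 7.42% of the counts other than mir-235. For mir-81 they were 8.22%, 8.73% and 7.23% of all counts, and 8.87%, 9.37% and 9.96% without mir-235. For mir-61, known from vulval cell fate downstream of LIN-12/Notch, male replicate 3 was far below the others both with mir-235, at 3.20% against 11.7% and 11.0%, and without it, at 4.41% against 12.6% and 11.8%. The counts other than mir-235 in male replicate 3 numbered 178157, so removing mir-235 raised the CPM of every other miRNA in that library by 1.38-fold, against 1.08-fold and 1.07-fold in male replicates 1 and 2 and 1.01-fold in each hermaphrodite library.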
